A study of Homo sapiens with 6 samples.

Results

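The genes followed here encode the death receptors of the cell surface, the ligand TRAIL, and the proteins that bind those receptors on the inner side of the membrane: TNFRSF10A, TNFRSF10B, TNFRSF10C, TNFRSF10D, TNFSF10, FAS, TNFRSF1A, FADD, CASP8 and CFLAR. They were chosen by name, and each was read from a probe set that carries its symbol alone. Of the 10 genes, 9 had such a probe set, among 18417 genes in all. TNFRSF10C was annotated only together with another locus and has no value of its own.

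All samples came from PC3, a prostate cancer line that grows without androgen and lacks functional p53. The cells received a miR-205 mimic on 3 arrays and a negative control mimic on the other 3, and the series calls the 3 samples of each group biological triplicates. In both groups RNA was recovered with an antibody against AGO2 (clone 11A9), an Argonaute protein, the kind that carries microRNAs to the transcripts they pair with, and hybridised to Affymetrix gene arrays. All cells are of 1 line, both groups received a transfected mimic, and arrays of input RNA were not part of the data used, so that AGO2 binding and transcript abundance cannot be told apart. As in any bulk measure, fewer cells with a transcript and less transcript per cell cannot be told apart either.

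Death receptors start apoptosis from outside the cell. TRAIL, encoded by TNFSF10, binds the signalling receptors DR4 (TNFRSF10A) and DR5 (TNFRSF10B), whose cytoplasmic death domains recruit the adaptor FADD. FADD in turn gathers procaspase-8 (CASP8), which is activated by clustering, and c-FLIP (CFLAR), a catalytically inactive homologue of caspase-8, limits that step. DcR1 (TNFRSF10C) and DcR2 (TNFRSF10D) bind TRAIL without passing on a full death signal and are known as decoys. PC3 cells are widely used to study sensitivity to TRAIL.

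The microRNA that separates the groups is shown because base pairing through its seed, bases 2 to 8, is how it selects transcripts. Its mature sequence from RefSeq (GRCh38.p14, chr1:209432166-209432187, plus strand) is printed with the seed in capitals. The labels do not say which arm the mimic carries, and the 5p arm is the one usually meant.

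hsa-miR-205-5p: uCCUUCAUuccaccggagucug

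The matching letters in a target would be AUGAAGG. Transcript sequences were not at hand, so no target site was searched in any of these genes.

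Values are log2 intensities, on which a difference of 1 is a doubling. Array medians over genes lay between 7.82 and 7.85. Epithelial character was read from keratins, of which KRT8, KRT18 and KRT19 stood at 11.1 or above on every array and KRT7 at 8.64 to 9.74. CDH1 and EPCAM, also on the epithelial list, were much dimmer in the control, at 6.21 to 6.34 and 6.61 to 6.97. With miR-205 they stood at 8.15 to 8.25 and 9.04 to 9.17. Their differences of 1.91 and 2.29 were the largest on this list. Of 6 epithelial markers 5 were called higher with miR-205, and the list mean was 10.4 to 10.5 with miR-205 and 9.29 to 9.42 in the control; the part of this shift in the results below was not tested. The androgen target KLK3 lay between 5.98 and 6.18, around 6.04, the 95th percentile of the means of 341 olfactory receptor genes, taken here as a level near background. The control values of CDH1 were only a little above that level. Of the other luminal prostate markers listed, KLK2 lay between 6.26 and 6.46 and ACP3 between 5.37 and 5.75, and the androgen receptor itself was not analysed here. ACP3, under the level near background on every array, was called higher with miR-205 (0.31, limma adjusted p = 0.00504), while KLK2 and KLK3 did not pass. Of 4 basal prostate markers measured, ITGB4 was called higher with miR-205 and DST lower, while KRT5 and KRT14 did not pass. Above the level near background lay the means of 4 of 6 fibroblast markers, among them COL1A1 (8.89 to 9.11 over the arrays), while DCN and LUM were at 3.69 or below. The same held for 2 of 6 leukocyte markers, TYROBP (7.50 to 7.70) and CD14 (6.14 to 6.50), while PTPRC was at 3.68 or below. The fibroblast list had means of 5.80 to 5.97 with miR-205 and 5.82 to 5.90 in the control, and the leukocyte list 5.43 to 5.50 and 5.49 to 5.58. By limma LUM was called higher (0.36, adjusted p = 0.0459, and 0.0617 without negative control replicate 2). PDGFRA was called lower (-0.31, adjusted p = 0.0493). The other fibroblast markers and all measured leukocyte markers did not pass. Negative control replicate 2 stood apart from the other control arrays in cytokine and immediate-early genes. Over 20 such genes this array had a mean of 10.4, where control replicates 1 and 3 had 8.37 and 8.42 and the miR-205 arrays 10.8 to 10.9. Values without this array are given below for members and for calls of named genes that it changed.

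With the miR-205 mimic, TNFRSF10B was lower in the AGO2 immunoprecipitate by about a halving, and FADD and CFLAR were lower by smaller steps, while FAS was higher. The other measured members, TNFRSF10A, TNFRSF10D, TNFSF10, TNFRSF1A and CASP8, did not pass the test. By limma across all genes, with a Benjamini-Hochberg adjusted p under 0.05 as the threshold, 3 of the 9 measured members were called lower and 1 higher. Over all genes 26.6% were called, 14.0% lower and 12.6% higher. The median change of the members was -0.06, against -0.02 over all genes tested, so the members as a group did not lean far to either side. Without negative control replicate 2 the same counts of members were called, 3 lower and 1 higher, against 30.1% of all genes, 15.6% lower and 14.5% higher. Without negative control replicate 3 only 1 member, TNFRSF10B, was called lower.

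**Figure D1:**
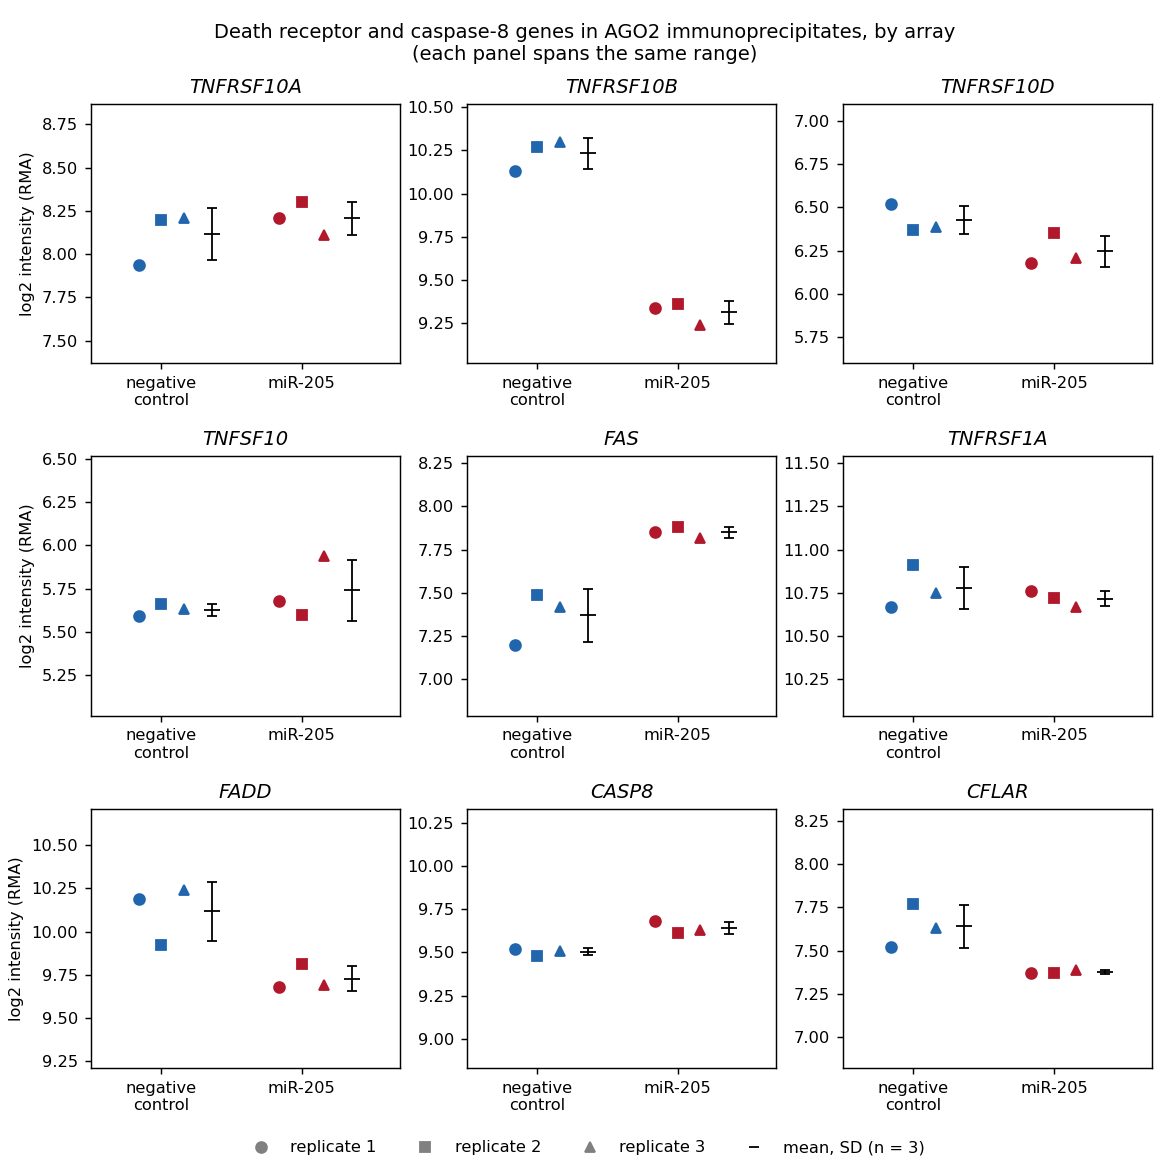
Log2 intensity of each measured gene on each array, with negative control arrays in blue, miR-205 arrays in red, the marker shape giving the replicate number, and the black bar the mean with its SD (n = 3). TNFRSF10B shows the widest gap between the groups, with 9.24 to 9.36 under miR-205 and 10.13 to 10.30 in the control; every panel spans the same range of log2 units.

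Among the signalling TRAIL receptors, TNFRSF10B and TNFRSF10A gave different values. TNFRSF10B stood at 9.34, 9.36 and 9.24 in the miR-205 arrays and at 10.13, 10.27 and 10.30 in the control arrays. All miR-205 arrays were well below all control arrays, and the control arrays lay close together, negative control replicate 2 included. The log2 difference was -0.92 ± 0.07 (SE, n = 3 per group, limma adjusted p = 6.68e-05), with a 95% interval of -1.08 to -0.76, which leaves 0.529 of the control level. By p it ranked 133 among all genes, and its size lay at percentile 98.7 of absolute changes. Without negative control replicate 2 the difference was -0.90 (adjusted p = 0.000112).

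TNFRSF10A, which encodes DR4, stood at 8.21, 8.30 and 8.11 with miR-205 and at 7.94, 8.20 and 8.21 in the control. The groups overlapped, and only control replicate 1 was lower than the rest. The difference was 0.09 ± 0.09 (SE, n = 3 per group, limma adjusted p = 0.493), with a 95% interval of -0.11 to 0.30, which does not reach the fall of TNFRSF10B. Without negative control replicate 2 it was 0.14 (adjusted p = 0.325).

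The decoy gene TNFRSF10D stood at 6.18, 6.35 and 6.21 with miR-205 and at 6.52, 6.37 and 6.39 in the control. The groups did not overlap, but miR-205 replicate 2 came within 0.02 of the nearest control array on the rounded values. The difference of -0.18 ± 0.07 (SE, n = 3 per group) had a limma adjusted p of 0.103 and did not pass. It was -0.21 (adjusted p = 0.0809) without negative control replicate 2. The mean of TNFRSF10D, 6.34, is only a little above the level near background, so that a larger change could be understated. For the other decoy, TNFRSF10C, the only probe set listing it also lists LOC254896. That shared probe set lay between 5.02 and 5.17 on all 6 arrays, below the level near background, with a difference of -0.01 ± 0.07 (SE, n = 3 per group, limma adjusted p = 0.920 over all probe sets), and cannot be assigned to either locus.

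The 4 TRAIL receptor genes lie side by side on chromosome 8, in the RefSeq order TNFRSF10B, TNFRSF10C, TNFRSF10D, TNFRSF10A. The coding gene next to TNFRSF10B outside this run is RHOBTB2, with a difference of -0.26 (adjusted p = 0.0626; -0.34 and 0.0141 without negative control replicate 2). RHOBTB2 passed under 4 of 15 alternatives. Besides that one they were dim genes left out (0.0422), robust variance with a trend (0.0329) and array weights (0.0314). CHMP7, a component of the ESCRT membrane machinery, borders TNFRSF10A on the other side and had a difference of -0.17 (adjusted p = 0.171). Of the measured genes named in this stretch, TNFRSF10B had the largest change. The 4 receptor genes are related in sequence, and how far probes of one read transcripts of another was not tested.

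The ligand gene TNFSF10 was dim on every array, at 5.68, 5.60 and 5.94 with miR-205 and at 5.59, 5.66 and 5.63 in the control. The groups overlapped, and only miR-205 replicate 3 was above the rest. The difference was 0.11 ± 0.09 (SE, n = 3 per group, limma adjusted p = 0.398), and 0.13 (0.356) without negative control replicate 2. TNFSF10 is known as an interferon-responsive gene. Of 26 measured interferon-stimulated genes, 18 were higher and 0 lower by limma with miR-205 (1 lower at an unadjusted p under 0.05), among them IFIH1, a sensor of double-stranded RNA (1.11, from control values of 5.48 to 5.97 that lie under the level near background, so that its size is uncertain), OAS1 (0.62) and IFIT1 (0.50). The mean of this list was 7.94 to 8.03 with miR-205 and 7.69 to 7.70 in the control, and its part in the values of TNFSF10 was not tested.

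Among the other receptors, FAS, the receptor of FAS ligand, had the opposite direction to TNFRSF10B. It stood at 7.85, 7.88 and 7.82 with miR-205 and at 7.20, 7.49 and 7.42 in the control. The groups did not overlap, the miR-205 arrays lay within a narrow band, and control replicate 1 was the lowest. FAS rose by 0.48 ± 0.08 (SE, n = 3 per group, limma adjusted p = 0.00294), a 1.39-fold change with a 95% log2 interval of 0.30 to 0.66. Negative control replicate 2 was the highest control array for FAS, and without it the difference was 0.54 (adjusted p = 0.00142). The interferon-stimulated list moved in the same direction as FAS, and its part in the rise was not tested.

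TNFRSF1A, the main receptor of tumour necrosis factor, was among the brighter members, at 10.76, 10.72 and 10.67 with miR-205 and 10.67, 10.91 and 10.75 in the control. The groups overlapped, with negative control replicate 2 the highest array. The difference was -0.06 ± 0.07 (SE, n = 3 per group, limma adjusted p = 0.621), with a 95% interval of -0.23 to 0.11. Without negative control replicate 2 it was 0.01.

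**Figure D2:**
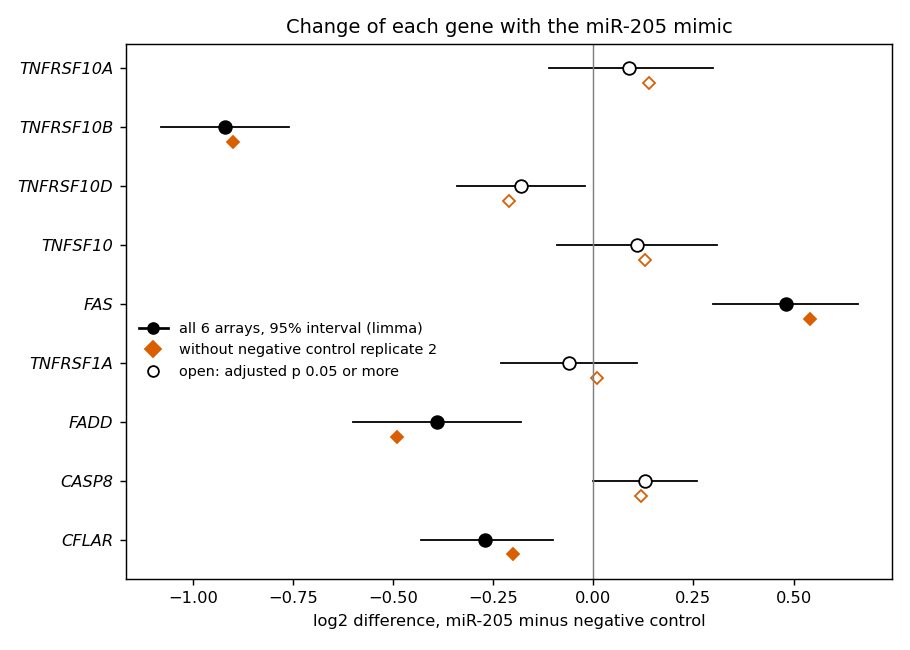
Log2 difference of each gene, miR-205 minus negative control (n = 3 arrays per group), with the 95% interval of the limma fit on all 6 arrays as a black line and the value without negative control replicate 2 as an orange diamond; filled symbols passed at an adjusted p under 0.05. TNFRSF10B lies at -0.92, apart from FADD at -0.39 and CFLAR at -0.27, and FAS is the filled symbol on the positive side, at 0.48.

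Inside the cell, the adaptor gene FADD stood at 9.68, 9.81 and 9.69 with miR-205 and at 10.19, 9.92 and 10.24 in the control. The groups did not overlap, but negative control replicate 2 was nearer to the miR-205 arrays than to the other control arrays. FADD fell by 0.39 ± 0.09 (SE, n = 3 per group, limma adjusted p = 0.0129). The fall was larger without negative control replicate 2, at -0.49 (adjusted p = 0.00128). The call was lost by a narrow margin without control replicate 1 (adjusted p = 0.0502) or control replicate 3 (0.0503).

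CASP8, the initiator caspase of this pathway, stood at 9.68, 9.61 and 9.63 with miR-205 and at 9.52, 9.48 and 9.51 in the control. The groups did not overlap and each was tight, yet the step between them was small. The difference of 0.13 ± 0.06 (SE, n = 3 per group) had a limma adjusted p of 0.120 and did not pass. It was 0.12 (adjusted p = 0.187) without negative control replicate 2.

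CFLAR, the inhibitor of caspase-8 activation, stood at 7.37, 7.37 and 7.39 with miR-205 and at 7.52, 7.77 and 7.63 in the control. All miR-205 arrays were below all control arrays, with negative control replicate 2 the farthest away. CFLAR fell by 0.27 ± 0.07 (SE, n = 3 per group, limma adjusted p = 0.0270), and by 0.20 without negative control replicate 2 (adjusted p = 0.0496). The call was lost without any 1 of the miR-205 arrays or control replicate 3 (adjusted p = 0.0668 to 0.0853).

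The platform holds 2 probe sets for CFLAR, which list no transcript accession in common. The second, dimmer one stood at 6.56, 6.27 and 6.41 with miR-205 and at 6.51, 6.96 and 6.80 in the control. Here miR-205 replicate 1 and control replicate 1 overlapped. Its difference of -0.34 ± 0.13 (SE, n = 3 per group) had the same sign as that of the first but did not pass in the fit over all probe sets (limma adjusted p = 0.139), in which the first did not pass either (0.0636).

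CFLAR, CASP10 and CASP8 are neighbours on chromosome 2. CASP10, a close relative of caspase-8 that also binds FADD, lay between 4.98 and 5.34 on all arrays, under the level near background, with a difference of -0.04 (adjusted p = 0.808). NDUFB3, a respiratory chain gene on the far side of CFLAR, was higher by 0.32 (adjusted p = 0.0160; 0.0627 without miR-205 replicate 3 and 0.0550 without control replicate 3). FLACC1, the coding gene on the far side of CASP8, lay between 4.60 and 5.19, under the level near background. It had a difference of 0.13 (adjusted p = 0.506). The genes of this stretch did not share a direction, with CFLAR lower and NDUFB3 higher.

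Counted without a test threshold, the groups were fully separate for 6 of the 9 members, 4 lower (TNFRSF10B, TNFRSF10D, FADD and CFLAR) and 2 higher (FAS and CASP8). Over all genes 42.2% were fully separate, 22.2% lower and 19.9% higher. Negative control replicate 2 lay above both other control arrays for 4 members, below both for 3 and between them for 2. The members' offset in that array from the mean of the other control arrays ran from -0.29 for FADD to 0.20 for TNFRSF1A.

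Whether members changed unequally was asked of 4 pairs, by taking the difference of their log2 values within each array. The change of a pair is the difference between the changes of its members given above, so it is no separate support for them. TNFRSF10B minus TNFRSF10A was 1.14, 1.05 and 1.13 with miR-205 and 2.19, 2.07 and 2.09 in the control. The change was -1.01, several times the spread within either group. TNFRSF10B minus TNFRSF10D was 3.16, 3.01 and 3.03 with miR-205 and 3.61, 3.90 and 3.91 in the control, a change of -0.74.

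TNFRSF10B minus FAS had the largest shift of the 4, from 2.93, 2.78 and 2.88 in the control to 1.50, 1.48 and 1.42 with miR-205, a change of -1.40. CASP8 minus CFLAR went the other way, from 2.00, 1.71 and 1.88 in the control to 2.31, 2.24 and 2.24 with miR-205, a change of 0.40, and 0.32 without negative control replicate 2. The groups did not overlap in any of the 4 pairs. The exact permutation p was 0.1 for each (two-sided, n = 3 per group), also after adjustment over the 4 pairs, which is the smallest that 3 against 3 arrays can give, so this test cannot reach 0.05 here.

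**Figure D3:**
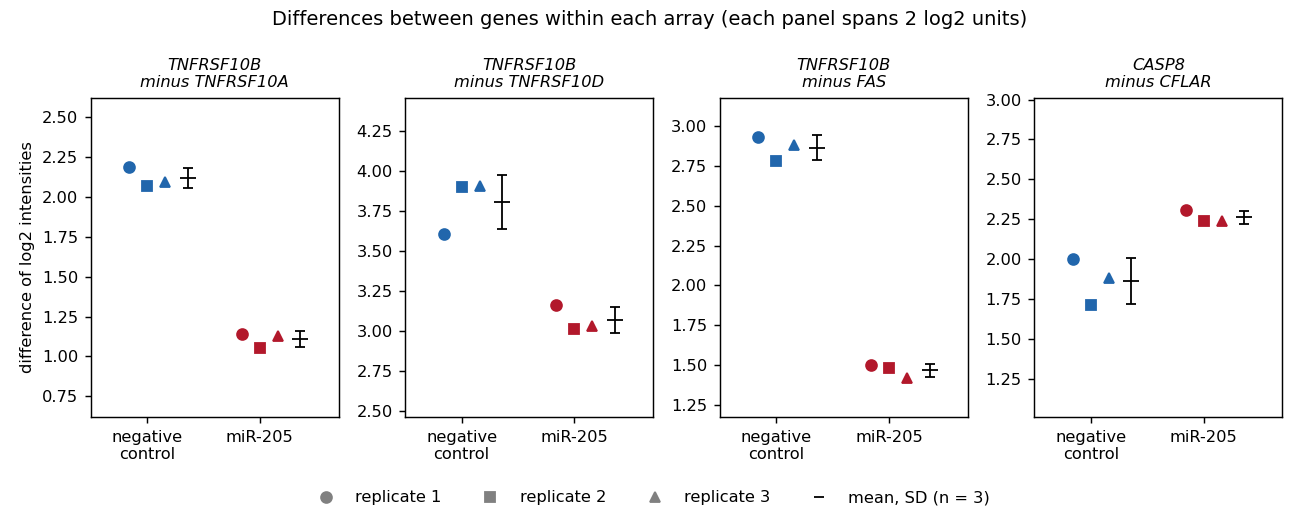
Difference of log2 intensities between a pair of genes within each array, with control arrays in blue, miR-205 arrays in red, and the black bar the mean with its SD (n = 3). TNFRSF10B minus FAS lies at 2.78 to 2.93 in the control and at 1.42 to 1.50 with miR-205, while CASP8 minus CFLAR is the panel in which the miR-205 arrays lie higher.

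Genes whose array values followed TNFRSF10B were sought by centring each gene on its own mean and taking the root-mean-square difference over the 6 arrays. The search covered 11800 of the 13590 genes whose mean over the arrays lay above the level near background. Symbols ending in P, or in P and digits, were left out to remove pseudogenes. This also drops coding genes, so closer genes may have been missed. The closest of the genes searched were MAP1B, a microtubule-associated protein (0.037 log2 units), FLRT2, a membrane adhesion protein (0.041), EPB41, a protein of the membrane skeleton (0.046), the ubiquitin ligase gene RNF157 (0.047) and GABBR2, a GABA receptor subunit (0.050). Their differences between the groups ran from -0.99 for GABBR2 to -0.88 for RNF157. FLRT2 lay under that level in all miR-205 arrays (5.72 to 5.82) and above it in the control (6.58 to 6.77), so its step may be understated. The likeness therefore consists of a step between the groups of the same size as that of TNFRSF10B.

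Around these members, 59 other genes of the pathway were listed by role, of which 51 were measured. Of these, 6 were called higher and 9 lower by limma, and 36 did not pass, with a median of 0.01, against -0.02 over all genes tested. These shares lie near those over all genes. The counts fell to 2 higher and 4 lower without miR-205 replicate 2, and the lower count to 5 without miR-205 replicate 1, miR-205 replicate 3 or control replicate 1. It was also 5, with 3 higher, when all probe sets were tested. The other 8 listed genes were not analysed here.

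None of the 4 measured ligands passed by limma, with 1 at an unadjusted p under 0.05. With negative control replicate 2 left out, TNF was higher and FASLG, the ligand of FAS, was lower. FASLG, chosen after its values were seen, was dim, at 5.31 to 5.45 with miR-205 and 5.48 to 5.66 in the control. All these values lie under the level near background. The difference of FASLG was -0.18 (adjusted p = 0.0861), or -0.22 (0.0459) without negative control replicate 2. Of 5 other receptors and soluble decoys, TNFRSF21, which encodes the death receptor DR6, was lower. It stood at 12.05, 12.05 and 12.08 with miR-205 and 12.27, 12.27 and 12.30 in the control, a fall of 0.22 ± 0.05 (SE, n = 3 per group, adjusted p = 0.0168). The groups were tight and separate, and the call was lost without miR-205 replicate 1 (0.0579) or 2 (0.0680).

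Of 11 adaptors and complex proteins, 2 were higher and 2 lower, and 1 each without negative control replicate 2. TRAF3, a signalling adaptor of TNF family receptors, fell by 0.40 (adjusted p = 0.00852). CRADD, an adaptor with a death domain, rose by 0.34 (adjusted p = 0.0113; 0.0509 without miR-205 replicate 2). MADD, a death domain protein that binds TNFRSF1A, rose by 0.26 (adjusted p = 0.0301), a call that was lost without miR-205 replicate 1 or 2 or control replicate 1 or 2 (0.0548 to 0.106). TRADD, the adaptor of TNFRSF1A, was chosen after its values were seen and had a difference of 0.02 (adjusted p = 0.892).

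Of 9 ubiquitin ligases, inhibitors of apoptosis and deubiquitinases, 2 were lower and 0 higher by limma, while at an unadjusted p under 0.05 there were 4 lower and 1 higher, TNFAIP3. CYLD, a deubiquitinase of the receptor complexes, stood at 7.79, 7.73 and 7.59 with miR-205 and at 8.14, 8.23 and 8.27 in the control, a fall of 0.51 ± 0.07 (SE, n = 3 per group, adjusted p = 0.00114). Its groups were clearly apart. BIRC2, which encodes the ubiquitin ligase cIAP1, fell by 0.26 (adjusted p = 0.0327), and its call was lost without miR-205 replicate 2 or 3 or control replicate 1 (0.1 to 0.113).

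TNFAIP3, chosen after its values were seen, encodes A20, an NF-kappa-B-induced inhibitor of TNF receptor signalling. It stood at 10.86, 11.10 and 11.01 with miR-205, at 7.66 and 7.87 in control replicates 1 and 3, and at 10.96 in negative control replicate 2. That control array was at the miR-205 level. The difference was 2.16 (adjusted p = 0.0581) on all arrays and 3.23 (adjusted p = 7.78e-07) without it. With array weights (0.00959) or with dim genes left out (0.0422) it also passed. TNF, also chosen after its values were seen, was at 6.78 there, against 6.15 and 6.21 in control replicates 1 and 3 and 6.58 to 6.82 with miR-205, with a difference of 0.31 (adjusted p = 0.186) and of 0.51 (0.00245) without it. In the 20 cytokine and immediate-early genes, 15 were higher on all arrays and 18 without negative control replicate 2, among them EGR1 (2.40), NR4A2 (2.60) and FOS (0.65).

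**Figure D4:**
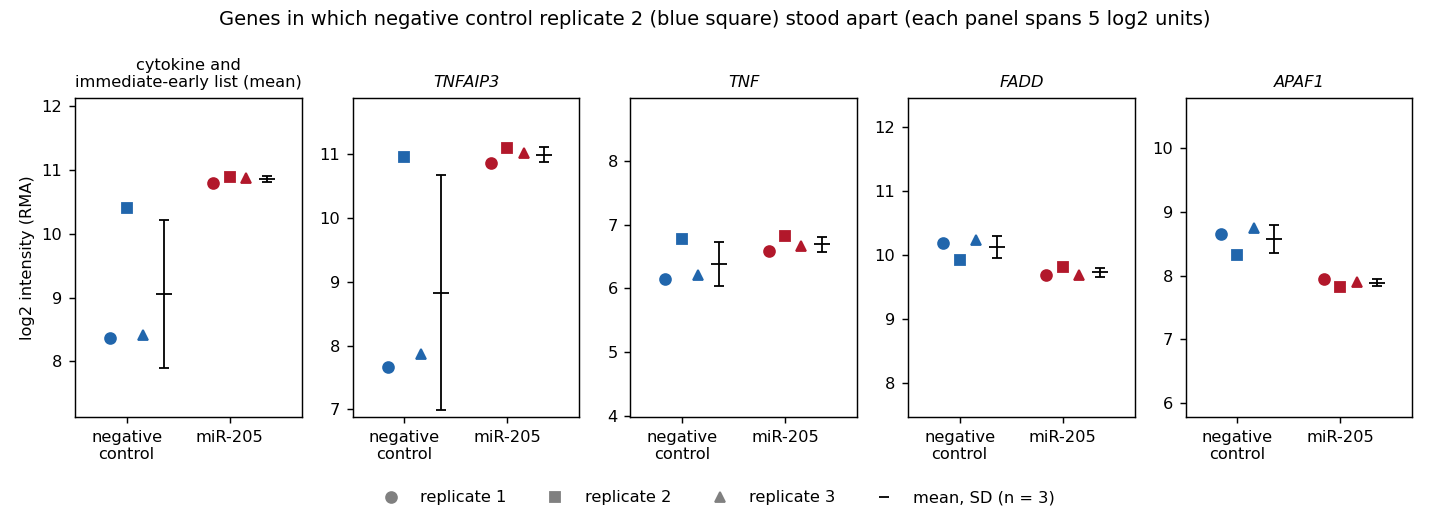
Log2 intensity by array for the mean of 20 cytokine and immediate-early genes and for TNFAIP3, TNF, FADD and APAF1, with control arrays in blue, miR-205 arrays in red and the black bar the mean with its SD (n = 3). Negative control replicate 2, the blue square, is at 10.96 for TNFAIP3, with the miR-205 arrays, and for FADD and APAF1 it lies on the miR-205 side of control replicates 1 and 3.

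Of 4 other caspases, CASP9, the initiator caspase of the mitochondrial route, was higher by 0.31 (adjusted p = 0.00886). Of 11 genes of the mitochondrial arm, through which caspase-8 can amplify its signal, 1 was higher and 4 lower. APAF1, the scaffold on which caspase-9 is activated, stood at 7.94, 7.83 and 7.90 with miR-205 and at 8.66, 8.32 and 8.74 in the control. Its groups were separate, with negative control replicate 2 the lowest control array.

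APAF1 fell by 0.68 ± 0.11 (SE, n = 3 per group, adjusted p = 0.00196), and by 0.81 without negative control replicate 2 (adjusted p = 0.000102). CYCS, which encodes cytochrome c, the partner that triggers APAF1, rose by 0.50 (adjusted p = 0.00107). BCL2L1, an inhibitor of mitochondrial permeabilisation, fell by 0.33 (adjusted p = 0.00594). BID, the link from caspase-8 to mitochondria, was chosen after its values were seen and fell by 0.19 (adjusted p = 0.0454). BCL2, named for the same reason, was the remaining gene called lower, at -0.37 (adjusted p = 0.0451), and -0.50 (0.0031) without negative control replicate 2. Both calls lie just under the threshold on all arrays, and most of the other alternatives were not examined for them.

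Of 4 genes for caspase substrates, 2 were higher and 0 lower by limma, with 0 lower at an unadjusted p under 0.05 either. When negative control replicate 2 was left out, DFFB was higher and ROCK1, a kinase chosen after its values were seen, was lower (-0.21, adjusted p = 0.0342). PARP1, a DNA repair enzyme that caspases cleave, rose by 0.23 (adjusted p = 0.0269) and DFFB, the nuclease of apoptotic DNA cleavage, by 0.27 (adjusted p = 0.0348). Both calls were fragile. That of PARP1 was lost without miR-205 replicate 2 or 3 or control replicate 2 (0.0555 to 0.103), and that of DFFB without any 1 array other than negative control replicate 2 (0.0574 to 0.120). With all probe sets tested, the calls of MADD (0.0687), BIRC2 (0.0737), PARP1 (0.0582) and DFFB (0.0793) were lost. Of the 3 necroptosis genes, 0 passed by limma and 1, MLKL, named after its values were seen, had an unadjusted p under 0.05, with a difference of 0.17 (adjusted p = 0.0514).

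**Figure D5:**
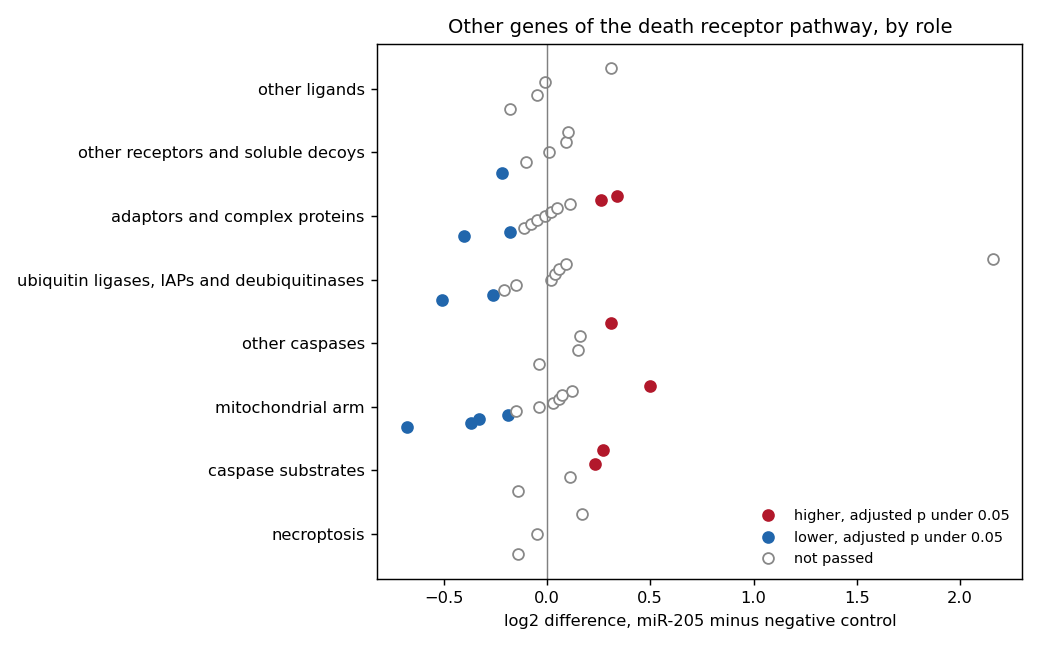
Log2 difference, miR-205 minus negative control (n = 3 arrays per group), of 51 other genes of the death receptor pathway, 1 point per gene, in rows by role, with red and blue for genes called higher or lower at a limma adjusted p under 0.05 and open grey for the rest. All called genes lie within a log2 unit of 0, and the open point far to the right is TNFAIP3 at 2.16.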

How the data were processed

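The deposited values were log2 intensities, which the authors made with RMA; the submitters' processing notes name Affymetrix Expression Console 1.1.2. They were used without further normalization. Of 33297 probe sets, 21214 were in the platform annotation, 19460 with 1 gene symbol and 1754 with several. Probe sets with several symbols named no gene, and where a gene had more than 1 probe set the brightest by its mean was used. Groups were compared over 18417 genes by a two-sided limma test (version 3.58.1, R 4.3.3) with group as its single term, the eBayes variance and Benjamini-Hochberg adjustment. The steps were tested on simulated data. The members and lists were chosen with earlier results of these data known. All members are named, with up to 3 called genes of smallest p per role, CASP10, and the 5 genes found most like the member of smallest p. The search for these 5 left out uncharacterised loci, open reading frames and FAM families. It also left out every symbol ending in P or in P and digits, pseudogene or not. Other names are marked or were taken by position beside the members. The 15 alternatives covered normalization, dim genes, probe set choice, variance models, weighting of arrays, a replicate block, and each array left out. The number of arrays limits the precision.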

Additional observations from a re-analysis of the deposited data

How the results depend on the processing

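TNFRSF10B stayed lower (-0.97 to -0.88) and FAS stayed higher (0.39 to 0.54), both past the threshold, under all 15 alternatives. With 1 array left out, 3365 to 5549 genes were called over all, 1 to 3 members lower (1 without control replicate 3), and 1 member higher in each case. Other pathway genes then numbered 2 to 6 higher and 4 to 10 lower, and with all probe sets tested 3 and 5. With 1 array left out TNFRSF1A ran from -0.11 to 0.01 (without control replicate 2) and CASP10 from -0.12 to 0.06 (without miR-205 replicate 3), and neither passed. TNFSF10 and CASP10 have no value with dim genes left out. FADD lost its call under 2 alternatives and CFLAR under 5. The causes were not tested. Testing all probe sets adjusts over more tests and also refits the variances, and these were not told apart. Fitting the replicate number as a block gave 4627 genes, 3 members lower and 1 higher, with 4 other pathway genes higher and 7 lower. With the block MADD (adjusted p = 0.0604), PARP1 (0.0532) and DFFB (0.0673) lost their calls and TNFAIP3 (0.0297) gained one. Same-numbered arrays deviated together only weakly (correlations 0.06, 0.09 and 0.01), so they were not taken as paired. Each array correlated best with its own number, except that control replicate 3 did so with miR-205 replicate 1, which is at most a hint from the data.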
